A study of Mus musculus with 24 samples.

Results

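The genes of the proteasome were followed in livers of mice that lack the PAR bZip transcription factors Hlf, Dbp and Tef and in livers of wild-type mice. They were taken from the count table by symbol: Psma, Psmb, Psmc, Psmd, Psme, Psmf or Psmg followed by a digit, without the pseudogene ending -ps, and with a mean of at least 1 CPM over all libraries. CPM are counts scaled to a common total, on library sizes adjusted by the trimmed mean of M-values (TMM). Of 54532 rows 50 matched the symbol, 48 reached the minimum, and all 48 passed the filter on low counts that left 15090 genes for testing. The pair below the minimum was Psmb11, the core subunit of the thymus, listed at 0 counts, and Psmc3ip, a meiotic recombination factor that shares only the letters, at 0.422 CPM. The lowest genes above it were Psma8 (1.77 CPM), Psme2b (2.29 CPM) and Psmg4 (3.78 CPM).

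Knockout (KO) mice had the genotype Hlf-/-/Dbp-/-/Tef-/- and wild-type (WT) mice Hlf+/+/Dbp+/+/Tef+/+. Both were fed ad libitum and were 12 to 16 weeks old. Liver mRNA was sequenced every 4 h, the first time being ZT04 and the last ZT24 (zeitgeber time, in hours), with 2 libraries for each genotype and time, 24 in all in 12 groups. Replicate 1 of each group is lettered I (set I below) and replicate 2 is lettered P (set P). The labels do not explain these letters, nor do they give the sex of the mice, the deleted exons or whether each library is its own animal. P-values measure the spread between libraries, which may be technical.

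The proteasome breaks down proteins tagged with ubiquitin. Its core is a barrel of alpha and beta rings, in which Psmb5, Psmb6 and Psmb7 are the standard cutting subunits. Its cap has a base, whose Psmc subunits are ATPases that unfold the substrate, and a lid, which removes the ubiquitin chain. In the immunoproteasome the cutting subunits are replaced by Psmb8, Psmb9 and Psmb10, which interferons induce and which shape peptides for MHC class I molecules. Transcription of the standard subunits is known to be raised by Nfe2l1 through antioxidant response elements, while PAR bZip factors bind the D-box and drive daily output genes of the liver clock.

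Promoter windows of RefSeq (build GRCm38.p6, 250 bases before to 50 after the start of the gene) matched 40 of the 48 genes and were searched on both strands. The D-box letters TTATGTAA or TTACGTAA stood in 0 of the 40 genes and in 1.23% of all 27025 genes with a window. The antioxidant response element TGACNNNGC stood in 6 (15%, against 14% of all genes) and the E-box CACGTG in 4 (10%, against 8.09%). CCAAT stood in 13 (32.5%, against 41.1%), and the interferon response core (GAAA, any pair of bases, GAAA) in 5, which were Psmb3, Psmd4, Psmd9, Psme1 and Psmg4 (12.5%, against 3.99%). The stretches below hold an antioxidant response element, the site of the known proteasome regulator, or an E-box, the site of clock factors that act above the deleted genes. Capitals mark the motif, and Psmd9, an assembly chaperone, holds both. The RefSeq start of Psmd9 lies 58777 bases inside the GENCODE M21 gene model that is given for it below, at the start of a protein-coding transcript of that model.
Psmb5 (chr14:54618016-54618055, minus strand): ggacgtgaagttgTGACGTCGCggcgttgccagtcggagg
Psmb6 (chr11:70525317-70525356, plus strand): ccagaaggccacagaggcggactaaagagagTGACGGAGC
Psmc6 (chr14:45329584-45329623, plus strand): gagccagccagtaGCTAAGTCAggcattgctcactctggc
Psmd12 (chr11:107479278-107479317, plus strand): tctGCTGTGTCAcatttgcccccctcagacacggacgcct
Psme4 (chr11:30771747-30771776, plus strand): gaacctcccggcgctgcggctGCAGCGTCA
Psmd9 (chr5:123228130-123228189, plus strand): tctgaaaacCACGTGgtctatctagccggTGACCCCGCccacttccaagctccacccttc
Psma4 (chr9:54950699-54950738, plus strand): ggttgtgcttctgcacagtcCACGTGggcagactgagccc
Psmb10 (chr8:105938483-105938522, minus strand): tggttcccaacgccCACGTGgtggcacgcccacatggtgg
Psme3 (chr11:101316153-101316192, plus strand): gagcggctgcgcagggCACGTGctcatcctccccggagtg
A match describes these letters and not a bound site.

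Library totals ran from 14807940 to 17410682 counts in KO and from 14613001 to 19288322 in WT livers. Dbp averaged 0.0199 CPM in KO and 15.4 CPM in WT livers, Tef 14.7 and 185 CPM, and Hlf 1.55 and 72.7 CPM, and the genotypes did not overlap for any of them. Albumin (Alb), a hepatocyte product, averaged 35381 CPM in KO and 62607 CPM in WT livers. Apoa1 averaged 5345 and 7139 CPM and Ttr 4192 and 5860 CPM, in KO and WT livers. The other hepatocyte genes listed, Serpina1c and Cps1, averaged 696 and 818 CPM and 4773 and 4704 CPM. WT set I stood apart from the other libraries: the correlation across genes between GC content and distance from the median library was 0.21 to 0.65, against −0.31 to 0.01 in KO livers and −0.21 to 0.05 in WT set P. The same correlation with transcript length was −0.27 to −0.09, against 0.04 to 0.10 in KO livers and −0.05 to 0.06 in WT set P. The proteasome transcripts are short, with a median of 1895 bases against 3145 bases for all genes tested, so results are given for all libraries and for set P. Bulk RNA cannot tell fewer cells of a type from less RNA per cell.

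Per kilobase of the longest transcript, over all 24 libraries, Psma6 (92.9 CPM), Psmb6 (89.6 CPM), Psmb4 (83.9 CPM) and Psma4 (80.0 CPM) stood highest. The standard cutting subunit Psmb5 stood at 12.2 CPM per kilobase and Psmb8, its immune counterpart, at 10.7. Psmb6 stood at 89.6 and its counterpart Psmb9 at 7.90, and Psmb7 at 19.5 and its counterpart Psmb10 at 21.1 CPM per kilobase. The value of Psmb5 is uncertain, because the processed pseudogene Gm3375 on chromosome 7 shares 98.9% of 796 aligned bases with it and had 12.0 CPM in KO and 16.5 CPM in WT livers. Psme2b is likewise a copy of Psme2 at 99.4% identity. Psma8, the alpha subunit of the testis, stood lowest at 0.923 CPM per kilobase. With merged exon lengths 32 of the 48 values moved by more than the spread between libraries, and the order changed. Psma6 (78.5), Psmd2 (52.1), Psmb4 (50.9) and Psmc5 (50.4) then stood highest, Psmb6 was at 46.2 and Psma4 at 39.3, and Psmb7 and Psmb10 were both at 16.2 CPM per kilobase.

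Averaged over the 6 times, 8 of 15 core genes, 10 of 17 cap genes and 5 of 7 assembly chaperones were lower in KO livers over all libraries, and 1 core gene was higher. In set P 2, 0 and 1 of them were lower, and 2 cap genes were higher. With an offset for transcript length and GC content over all libraries, 9 core genes, 3 cap genes and 5 chaperones were lower and 1 cap gene was higher, and the cap median was −0.08, against −0.24 without it. Of the 48 genes 25 were lower and 1 was higher at an adjusted p under 0.05 (edgeR quasi-likelihood F-test, Benjamini-Hochberg over all genes tested), where 21.1% of all genes were lower and 12.1% higher. The median log2 change, KO over WT, was −0.25 over the 48 genes and −0.02 over all genes. In set P 3 were lower and 3 higher (6.33% and 6.71% of all genes), with a median of −0.06. Without the 6 WT libraries of set I 5 were lower and 0 higher (8.86% and 9.91%), and the 5 were Psma7, Psma8, Psmc2, Psmd7 and Psmd9.

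In set I alone 19 were lower and 3 higher (14.2% and 17.8% of all genes). With the replicate letter as a block 26 were lower and 8 higher (27.2% and 25.1%), the higher ones being Psma1, Psma3, Psma4, Psmc6, Psmd1, Psmd6, Psmd14 and Psme4. With the length and GC offset 18 of the 48 were lower and 2 higher (19.4% and 12%), and with block and offset together 18 and 6 (22.7% and 16.6%). In set P with that offset, a fit chosen after seeing the data, 3 were lower, Psma8, Psmc2 and Psmd9, and 1, Psme1, higher (5.59% and 4.92%). DESeq2 gave 24 lower and 3 higher (19.3% and 15.5%), and no filter on low counts 16 and 3 (8.57% and 11.7%).

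The count of lower genes was 13 without the WT set I library of ZT04 or of ZT16 (14% and 13.5% of all genes) and 15 without that of ZT08 (14.1%), and 18 to 29 without any other library. The count of higher genes was 9, 8 and 6 without the WT set P library of ZT20, ZT04 and ZT16 (30.4%, 24.7% and 24% of all genes), and 2 without that of ZT08 or ZT12 (10.9% and 11.5%). A group left with 1 library is assumed to vary like the others. It was 0 without the WT set I library of any time other than ZT20, and without any KO library other than those of set I at ZT20 and ZT24.

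**Figure D1:**
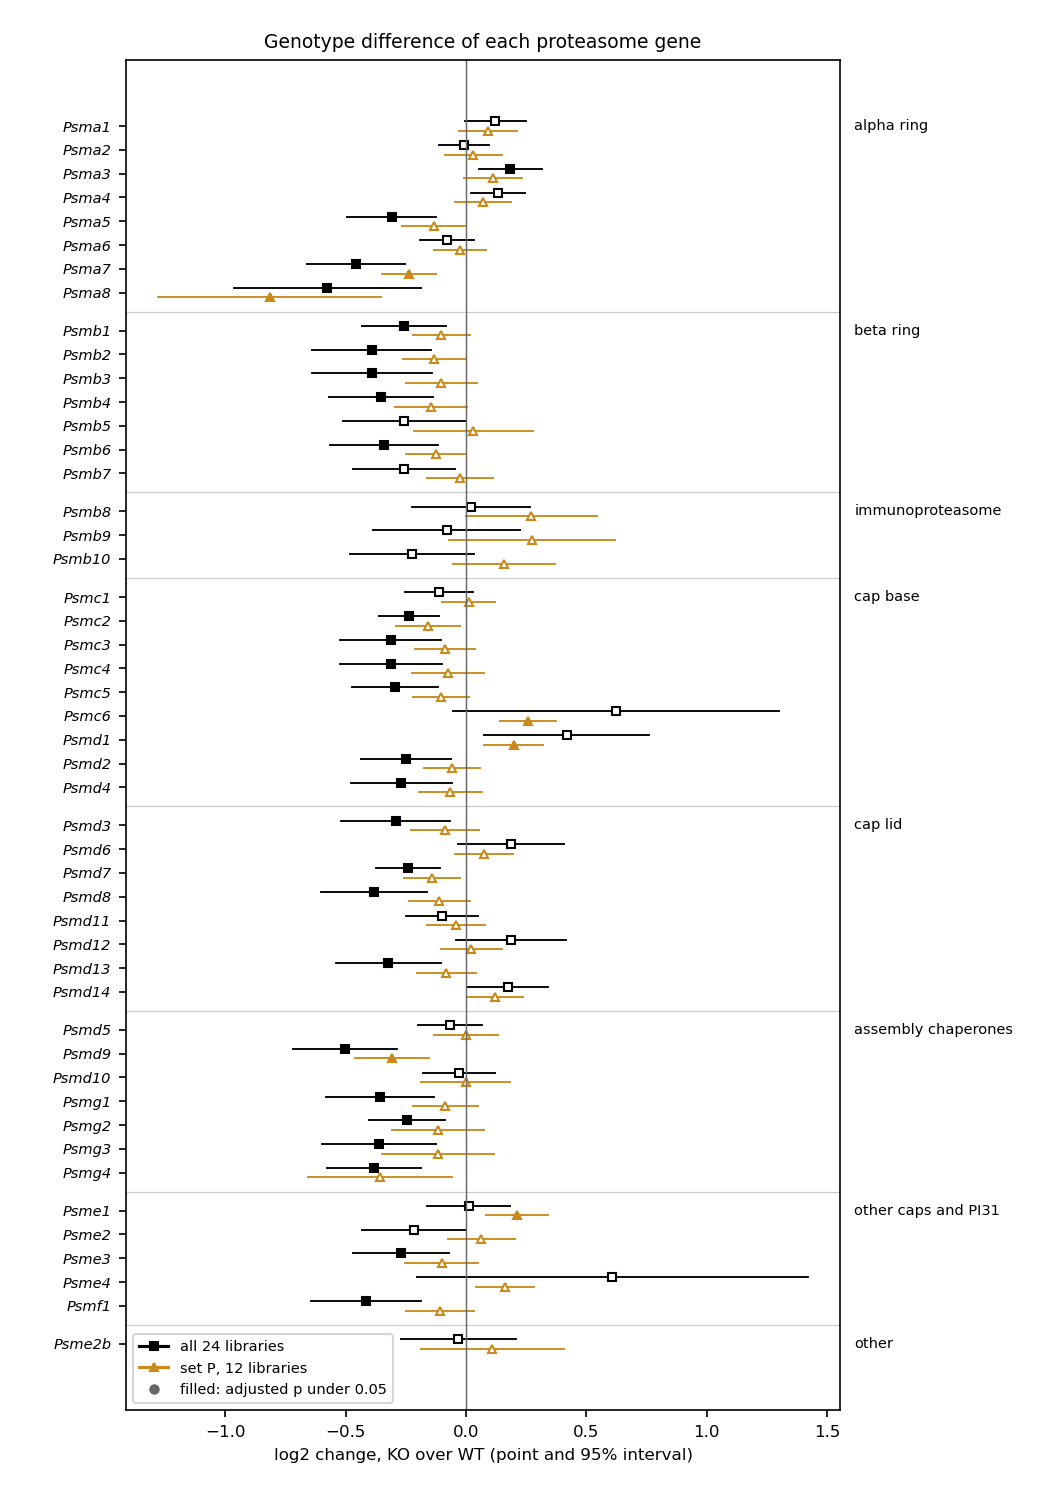
Log2 change, KO over WT, of each of the 48 proteasome genes averaged over 6 times, with its 95% interval, by group (squares: all 24 libraries, triangles: the 12 libraries of set P, filled where the adjusted p was under 0.05). Most core, cap and chaperone squares sit left of 0 with their triangles closer to 0, and Psma7, Psma8 and Psmd9 are filled on the left in both.

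The 15 genes of the standard core summed to 1028 ± 48.4 CPM in KO and 1165 ± 174 CPM in WT livers (SD, n = 12 each). In set P the sums ran from 983 to 1098 CPM in KO and from 1009 to 1146 CPM in WT livers and overlapped. The 17 genes of the cap summed to 1531 ± 102 CPM in KO and 1670 ± 221 CPM in WT livers (SD, n = 12 each), and in set P to 1558 ± 102 CPM and 1568 ± 126 CPM (SD, n = 6 each). The 3 immunoproteasome genes summed to 67.7 ± 16.2 CPM in KO and 73.8 ± 21.7 CPM in WT livers (SD, n = 12 each). In set P they stood the other way, at 75.1 ± 19.9 CPM in KO and 63.5 ± 16.1 CPM in WT livers (SD, n = 6 each), with overlapping ranges. The 7 assembly chaperones summed to 114 ± 4.45 CPM in KO and 138 ± 19.6 CPM in WT livers (SD, n = 12 each), and in set P to 115 ± 5.47 CPM and 124 ± 4.29 CPM (SD, n = 6 each).

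**Figure D2:**
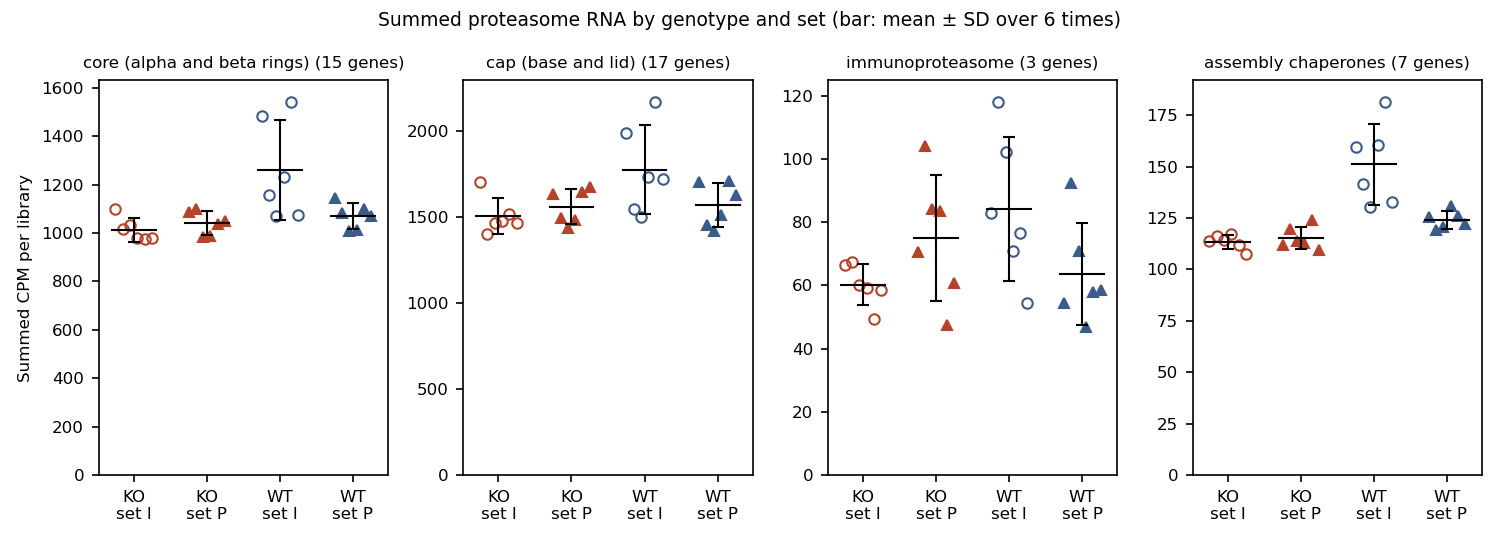
Summed CPM of the standard core, the cap, the immunoproteasome and the assembly chaperones in every library, KO in red and WT in blue, circles for set I and triangles for set P, with bars for mean ± SD over 6 times. WT set I reaches 1540 CPM in the core, while WT set P (1009 to 1146 CPM) overlaps KO set P (983 to 1098 CPM).

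In the alpha ring, which gates the core, 3 of 8 genes were lower over all libraries, 1 was higher and 4 were not called. Of all genes 21.1% were lower and 12.1% higher. Psma7 (ENSMUSG00000027566, chr2:180036374-180042433, build mm10) had 75.5, 82.9 and 92.5 CPM (lowest, median and highest of 12 libraries) in KO and 88.8, 108 and 176 CPM in WT livers, so the genotypes overlapped only at the edge. Its log2 change was −0.46 ± 0.10 (SE, adjusted p 0.00335) over all libraries and −0.24 ± 0.05 (adjusted p 0.0115) in set P. It was called with each of the 24 libraries left out in turn, but in set P with an offset for transcript length and GC content it was at −0.15 (adjusted p 0.115).

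Psma8 was lower at very low counts, 12 to 40 per library in KO and 9 to 57 in WT livers. It had 0.695, 1.49 and 2.29 CPM in KO and 0.555, 2.21 and 3.32 CPM in WT livers, a change of −0.58 ± 0.18 (adjusted p 0.0279) over all libraries and of −0.82 ± 0.21 (adjusted p 0.0280) in set P. The call held in 14 of the 24 fits that left out a library, and the adjusted p reached 0.0662. Psma5 had 46.0, 50.0 and 63.0 CPM in KO and 49.3, 60.0 and 93.7 CPM in WT livers (−0.31, adjusted p 0.0161), and was not called in set P (−0.13, adjusted p 0.161).

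The gene called higher was Psma3, with 102, 106 and 116 CPM in KO and 76.5, 96.1 and 114 CPM in WT livers (0.18 ± 0.06, adjusted p 0.0341). It was at 0.11 in set P (adjusted p 0.199), was called in 9 of the 24 fits that left out a library, and stood at −0.27 (adjusted p 0.124) with the length and GC offset. The processed pseudogene Gm13835 matches 665 of its bases at 100% identity and had 3.29 CPM in KO and 3.50 CPM in WT livers. Psma1 (0.12), Psma2 (−0.01), Psma4 (0.13) and Psma6 (−0.08) were not called, although Psma1 and Psma4 were with the replicate block (adjusted p 0.0467 and 0.0250).

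In the beta ring 5 of 7 genes were lower over all libraries and 0 in set P by edgeR, where 21.1% and 6.33% of all genes were lower. At unadjusted p under 0.05 in either direction, 2 passed in set P, as did 4400 of 15091 genes. Psmb2, Psmb3 and Psmb4, which do not cut, changed by −0.39, −0.39 and −0.35 (adjusted p 0.0212, 0.0227 and 0.0188), and stood at −0.13, −0.10 and −0.15 in set P. Psmb4 had 75.2, 85.0 and 102 CPM in KO and 85.6, 102 and 178 CPM in WT livers. Psmb1, another structural subunit, changed by −0.26 (adjusted p 0.0278).

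Of the standard cutting subunits, Psmb6 had 70.5, 75.5 and 86.5 CPM in KO and 74.8, 85.1 and 156 CPM in WT livers (−0.34, adjusted p 0.0253), and was at −0.13 in set P (adjusted p 0.165). Psmb7 had 42.8, 50.2 and 58.8 CPM in KO and 49.6, 53.8 and 85.4 CPM in WT livers (−0.26, adjusted p 0.0586, and 0.0373 with the replicate block). Psmb5 had 8.20, 9.25 and 13.2 CPM in KO and 8.36, 10.6 and 21.1 CPM in WT livers (−0.26, adjusted p 0.102), and stood at 0.03 in set P. Its pseudogene Gm3375 changed by −0.44 (adjusted p 0.0186) over all libraries and stood at −0.16 (adjusted p 0.284) in set P. The highest values of Psmb4, Psmb5 and Psmb6 were all in the WT set I library of ZT20.

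None of the 3 immunoproteasome genes was called over all libraries or in set P by edgeR, and 0 passed an unadjusted p under 0.05 in either. Of all genes 7383 of 15090 and 4400 of 15091 passed that unadjusted rule. With the length and GC offset Psmb8, Psmb9 and Psmb10 stood at 0.24, 0.15 and 0.04 over all libraries. There 1 of 3 was at an unadjusted p under 0.05, as were 6730 of 15090 genes. With that offset in set P they stood at 0.33, 0.33 and 0.24, with none called (adjusted p 0.106, 0.178 and 0.140). All 3 were at an unadjusted p under 0.05 in that fit, as were 3671 of 15091 genes. Psmb8 (chr17:34197721-34201454) had 12.8, 19.1 and 33.9 CPM in KO and 13.5, 19.5 and 29.4 CPM in WT livers, with a log2 change of 0.02 (95% interval −0.23 to 0.27) over all libraries and 0.27 (−0.00 to 0.54) in set P. Psmb9 (chr17:34181987-34187764) had 13.5, 22.9 and 36.7 CPM in KO and 10.6, 20.9 and 49.4 CPM in WT livers, with −0.08 (−0.39 to 0.23) and 0.27 (−0.07 to 0.62). Psmb10 (chr8:105935735-105938444) had 17.7, 25.5 and 35.2 CPM in KO and 20.2, 30.7 and 48.9 CPM in WT livers, with −0.22 (−0.48 to 0.03) and 0.16 (−0.05 to 0.37).

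In set I the changes were −0.25, −0.46 and −0.58, of which that of Psmb10 was called (adjusted p 0.0260). The sets differed in a direct test for Psmb9 and Psmb10 (both 0.75, set P minus set I, adjusted p 0.0247 and 0.0149), and for Psmb8 the difference was 0.53 (adjusted p 0.0511). Markers of MHC class II cells, which are rich in immunoproteasome, were lower in KO livers over all libraries and in set P. All 4 were called in each, where 21.1% and 6.33% of all genes were lower. The sum of these markers was 162 to 437 CPM in KO and 342 to 707 CPM in WT livers, and 236 to 436 CPM and 397 to 590 CPM in set P. Of the other immune lists, 3 of 6 Kupffer cell genes and 1 of 4 leukocyte genes were higher over all libraries, and 2 and 0 in set P. Of all genes 12.1% and 6.71% were higher. Of 4 B cell genes 3 were lower over all libraries and 0 in set P. Of 6 T and NK cell genes 1 was higher and 1 lower over all libraries, and 0 and 1 in set P. The part of these cells in the values of Psmb8, Psmb9 and Psmb10 was not tested. Psmb9 shares 212 exonic bases with Tap1 and Psmb8 shares 498 with the antisense gene Gm20496, and the sources used here do not say whether counting used strand.

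In the base of the cap 6 of 9 genes were lower over all libraries (21.1% of all genes). In set P 0 were lower and 2 were higher (6.33% and 6.71% of all genes). The ATPase Psmc2 had 71.8, 83.5 and 101 CPM in KO and 86.6, 100.4 and 115 CPM in WT livers, a change of −0.24 (adjusted p 0.00857), and was at −0.16 in set P (adjusted p 0.110). The ATPases Psmc5 and Psmc3 changed by −0.30 and −0.31 (adjusted p 0.0179 and 0.0267) and stood at −0.10 and −0.09 in set P. The ATPase Psmc4, the scaffold Psmd2 and the ubiquitin receptor Psmd4 changed by −0.31, −0.25 and −0.27, and stood at −0.08, −0.06 and −0.07 in set P. The ATPase Psmc1 was not called (−0.11).

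The ATPase Psmc6 and the scaffold Psmd1 were higher in set P, by 0.26 (adjusted p 0.00970) and 0.20 (adjusted p 0.0405), but with the length and GC offset in set P neither was called (adjusted p 0.0846 and 0.0807). Over all libraries they stood at 0.62 (adjusted p 0.127) and 0.42 (adjusted p 0.0555). In set P, Psmc6 had 117, 102, 101, 104, 119 and 121 CPM from ZT04 to ZT24 in KO livers, against 93.0, 90.0, 88.9, 80.5, 97.0 and 102 CPM in WT livers. In set I it had 92.3, 75.4, 74.2, 94.6, 103 and 81.4 CPM in KO livers, against 24.2, 54.3, 44.5, 18.4, 12.1 and 77.0 CPM in WT livers.

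Psme4, the large cap PA200, followed the same course. In set I it had 163, 144, 156, 153, 172 and 136 CPM in KO livers, against 28.8, 77.7, 80.5, 25.6, 16.8 and 120 CPM in WT livers. In set P it had 184 to 208 CPM in KO and 162 to 189 CPM in WT livers (0.16, adjusted p 0.0740). Both genes were lowest in the WT set I libraries of ZT04, ZT16 and ZT20, which had the strongest trend with GC content (r of 0.58, 0.61 and 0.65), and the transcripts of Psmc6 and Psme4 have 37.0% and 43.9% GC against a median of 49.7% over the 48 genes. Other genes with low GC went both ways in these WT set I libraries against WT set P at the same time. Psma2, Psmb7, Psmc2 and Psmd11 (39.4%, 40.8%, 41.3% and 39.9% GC) were higher there at each of these times. Psma3, Psma8, Psmd10 and Psmd14 (40.8%, 43.2%, 42.3% and 43.2% GC) were lower. The part of the GC trend in the values of Psmc6 and Psme4 was not tested.

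In the lid 4 of 8 genes were lower over all libraries and 0 in set P by edgeR, where 21.1% and 6.33% of all genes were lower. At unadjusted p under 0.05 in either direction, 2 passed in set P, as did 4400 of 15091 genes. Psmd7, the partner of the deubiquitinase Psmd14, had 67.0, 77.5 and 86.2 CPM in KO and 75.0, 91.1 and 122 CPM in WT livers (−0.24, adjusted p 0.0107), and was at −0.14 in set P (adjusted p 0.105). Psmd8 had 80.0, 87.8 and 92.5 CPM in KO and 84.7, 103 and 189 CPM in WT livers (−0.38, adjusted p 0.0138), and was at −0.11 in set P. Psmd13 and Psmd3 changed by −0.32 and −0.29 (adjusted p 0.0288 and 0.0459) and stood at −0.08 and −0.09 in set P. Psmd6 (0.19), Psmd11 (−0.10), Psmd12 (0.19) and Psmd14 (0.17) were not called. Psmb3, Psmd3 and Psmd11 lie 7.37, 8.35 and 9.91 Mb from the deleted Hlf on chromosome 11.

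Of the 7 assembly chaperones 5 were lower over all libraries and 1 in set P, where 21.1% and 6.33% of all genes were lower. Psmd9 (ENSMUSG00000029440, chr5:123169413-123250131), which escorts ATPases into the base, had 22.1, 27.3 and 33.5 CPM in KO and 29.6, 36.1 and 54.3 CPM in WT livers. It changed by −0.50 ± 0.10 (SE, adjusted p 0.00269) over all libraries, by −0.31 ± 0.07 (adjusted p 0.0166) in set P and by −0.26 (adjusted p 0.0487) in set P with the length and GC offset, and was called with each of the 24 libraries left out. In set P it had 26.5, 30.8, 31.1, 25.5, 27.4 and 22.1 CPM from ZT04 to ZT24 in KO livers, against 36.05, 32.9, 36.2, 35.3, 29.6 and 29.97 CPM in WT livers. KO was lower at each of the 6 times, and the ranges overlapped. The exons of Psmd9 share 1849 bases, 25.5% of their length, with the lincRNA Gm26745 on the opposite strand.

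Psmg4 changed by −0.38 (adjusted p 0.00724) on 40 to 74 counts per library in KO and 50 to 104 in WT livers, and was at −0.36 in set P (adjusted p 0.109). Its partner Psmg3 and the other pair of core chaperones, Psmg1 and Psmg2, changed by −0.36, −0.36 and −0.24 (adjusted p 0.0252, 0.0203 and 0.0234), and stood at −0.12, −0.09 and −0.12 in set P. Psmd5 (−0.07) and Psmd10 (−0.03), which escort other ATPases of the base, were not called.

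Among the caps without ATPases and PI31, a binder of the core, 2 of 5 genes were lower over all libraries (21.1% of all genes). Psmf1, the gene of PI31, had 26.8, 29.5 and 35.1 CPM in KO and 28.4, 38.1 and 54.5 CPM in WT livers (−0.42, adjusted p 0.0109), and was at −0.11 in set P (adjusted p 0.300). Psme3, the nuclear cap PA28 gamma, changed by −0.27 (adjusted p 0.0395) and stood at −0.10 in set P. Psme1 and Psme2, the interferon-induced PA28 alpha and beta, stood at 0.01 and −0.22. In set P Psme1 was higher, with 86.9, 99.8 and 111 CPM in KO and 76.8, 81.7 and 96.05 CPM in WT livers (0.21, adjusted p 0.0390), and also with the length and GC offset in set P (0.29, adjusted p 0.00713). Psme2 (0.06) and its copy Psme2b (0.11) were not called in set P.

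The genotype effect differed between set P and set I for 25 of the 48 genes, where 29% of all genes differed. In set I the genotypes did not overlap for 8 genes: Psma7, Psmb3, Psmb4, Psmc5, Psmd8, Psmg1 and Psmf1 were lower in KO (7.26% of all genes) and Psme4 was higher (9.14%). In set P, where 2.4% and 2.82% of all genes did not overlap, and over all libraries (0.921% and 0.596%), each of the 48 overlapped. Across the 48 genes the log2 change and GC content had an r of −0.58 in set I and −0.09 in set P, against −0.50 and −0.13 over all genes. With log2 length the r was 0.32 in set I and 0.15 in set P, against 0.20 and 0.06 over all genes. These describe genes that share the same libraries.

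**Figure D3:**
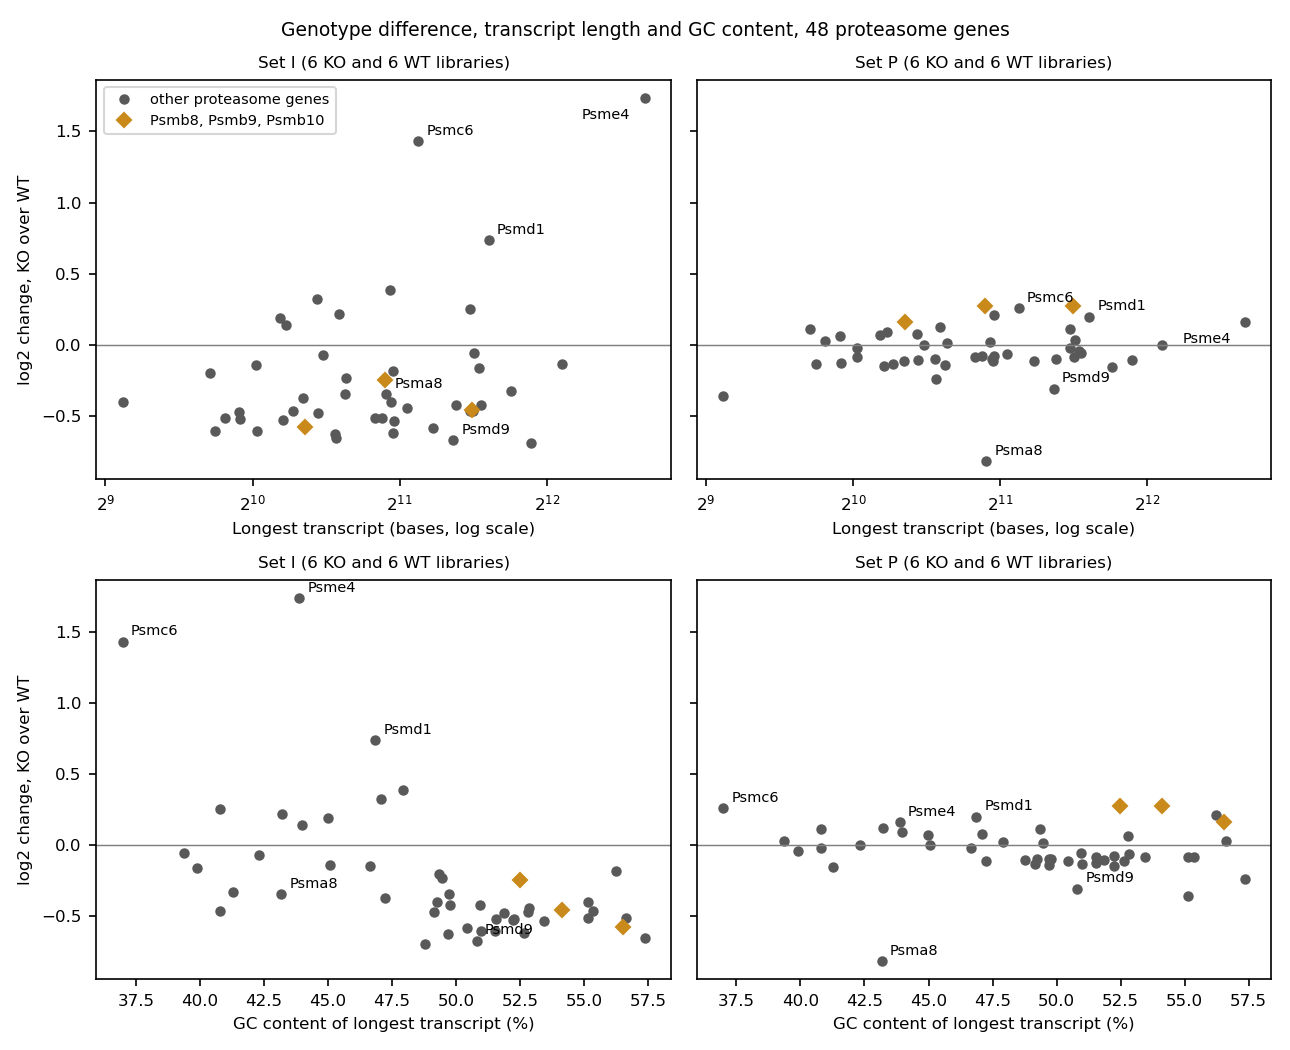
Log2 change, KO over WT, of the 48 proteasome genes against length (log axis, top) and GC content (bottom) of the longest transcript, in set I (left) and set P (right), each from 6 KO and 6 WT libraries. Diamonds are the immunoproteasome genes, below 0 in set I (−0.25 to −0.58) and above 0 in set P (0.16 to 0.27), and Psme4 and Psmc6 stand highest in set I (1.73 and 1.43).

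At single times, with 2 libraries against 2, edgeR called 0 of the 48 genes at each of the 6 times. Of all genes 0.696%, 0.603%, 1.15%, 1.01%, 2.47% and 0.384% were lower from ZT04 to ZT24, and 0.563%, 0.331%, 0.696%, 0.643%, 1.46% and 0.292% higher. At unadjusted p under 0.05, 7, 1, 1, 4, 24 and 0 of the 48 were lower from ZT04 to ZT24 and 1 was higher, at ZT16, and DESeq2 called 1 lower at ZT08 and 2 at ZT20. On that unadjusted rule 11.4%, 5.08%, 7.51%, 10.9%, 20.5% and 3.59% of all genes were lower and 5.9%, 3.06%, 4.1%, 7.18%, 11.2% and 2.7% higher. DESeq2 called 1.42% of all genes at ZT08 and 8.19% at ZT20 in either direction. With no filter on low counts 0 of the 48 were called at ZT04 (3.52% of all genes), 1 at ZT08 (1.36%), 1 at ZT16 (5%) and 7 at ZT20 (10.2%). The median log2 change of the 48 was −0.27, −0.09, −0.09, −0.25, −0.48 and −0.12 from ZT04 to ZT24.

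The smallest p at ZT20 was that of Psma7, with 79.5 and 82.5 CPM (set I and set P) in KO and 176 and 99.1 CPM in WT livers (−0.77, adjusted p 0.0687). Psmb4 had 78.3 and 78.3 CPM in KO and 178 and 95.2 CPM in WT livers (−0.80, adjusted p 0.0697), so that in both the WT set I library was the high one. With the replicate block 14 genes were called at ZT20 (19% of all genes). Without the WT set P library of ZT20, which leaves 1 WT library at that time and takes the spread from the other groups, 33 were called (52% of all genes). Without that of ZT04 or ZT16 6 and 4 were called (8.87% and 8.6%). At ZT24, where WT set I had its weakest GC trend (r of 0.21), the core summed to 980 and 1052 CPM in KO and 1074 and 1072 CPM in WT livers. At ZT08 the smallest p was that of Psma8, with 0.740 and 0.972 CPM in KO and 2.58 and 3.32 CPM in WT livers (adjusted p 0.106).

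Over the day 0 to 10 of the 48 genes had a 24 h rhythm that passed, depending on the genotype and the fit, and no difference in rhythm between genotypes was called. With a 24 h cosine and sine per genotype, 0 of the 48 passed in KO livers (3.57% of all genes) and 1, Psmd11, in WT livers (8.67%). At unadjusted p under 0.05, 5 passed in KO and 11 in WT livers. For the unadjusted rhythm and interaction counts of this paragraph the share of all genes is not given, so they cannot be set against it. DESeq2 called 2 in KO (Psmd11 and Psmg2) and 5 in WT livers (Psma1, Psmb10, Psmd11, Psmd5 and Psmd7), where it called 6.59% and 12.7% of all genes. With the length and GC offset 1 passed in KO (Psmb10) and 10 in WT livers (Psmb8, Psmb9, Psmb10, Psmc4, Psmd3, Psmd4, Psmd7, Psmd14, Psme1 and Psme3), where 7.06% and 13% of all genes passed. In set P 3 passed in KO (Psmb8, Psmd11 and Psmd14) and 2 in WT livers (Psmd11 and Psmd14), where 5.24% and 5.55% of all genes passed. With the replicate block 1 passed in KO (Psmd11) and 4 in WT livers (Psma1, Psmd11, Psmd14 and Psme3), where 4.65% and 10.9% of all genes passed. The count in KO livers was 3 without the WT set I library of ZT20 (5.42% of all genes). It was 1 without that of ZT04, ZT12 or ZT24 (4.4%, 4.25% and 3.65%). Without the KO set I library of ZT16 (3.15%) or the WT set P library of ZT08 or ZT12 (3.56% and 3.43%) it was also 1. The count in WT livers was 5 without the WT set I library of ZT04 (12.9%) and 4 without that of ZT20 (8.4%). It was 2 without the KO set P library of ZT16 (8.51%). Without the WT set P library of ZT04, ZT16, ZT20 or ZT24 it was also 2 (8.23%, 8.72%, 9.61% and 9.41%). A difference in rhythm was called for 0 of the 48 and 0% of all genes (1 of the 48 at unadjusted p under 0.05, 0 by DESeq2), and the genotype by time interaction also for 0 and 0% (0 of the 48 at unadjusted p under 0.05).

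Psmd11, a scaffold subunit of the lid, was lowest at ZT08 and ZT12 in both genotypes. In KO livers it had 155 and 141 CPM at ZT04 (set I and set P), 105 and 102 at ZT08, 109 and 92.2 at ZT12, 124 and 103 at ZT16, 132 and 141 at ZT20 and 144 and 144 CPM at ZT24. In WT livers it had 179 and 141 CPM at ZT04, 118 and 95.6 at ZT08, 105 and 91.3 at ZT12, 145 and 118 at ZT16, 182 and 149.8 at ZT20 and 141 and 145 CPM at ZT24. The fitted log2 amplitude was 0.30 in KO livers, peaking at ZT 23.9 (adjusted p 0.0658), and 0.35 in WT livers, peaking at ZT 22.9 (adjusted p 0.0182, called with each of the 24 libraries left out).

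With the replicate block the rhythm of Psmd11 passed in KO as in WT livers (adjusted p 0.0223 and 0.00594), and in set P too (0.0133 and 0.00845), but with the length and GC offset in neither (0.842 and 0.198). The difference between genotypes had an unadjusted p of 0.651 (adjusted p 0.982). A stretch of 219 bases of Psmd11 stands at 97.3% identity in A730017L22Rik on chromosome 2, which was higher in KO livers (17.1 CPM in KO and 13.2 CPM in WT livers, adjusted p 0.00117).

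The deubiquitinase Psmd14 had amplitudes of 0.25 in KO and 0.26 in WT livers (adjusted p 0.143 and 0.0716), peaking at ZT 23.4 and ZT 0.828. In set P it had 63.9, 52.7, 49.6, 55.8, 69.8 and 69.4 CPM from ZT04 to ZT24 in KO livers, against 60.4, 50.8, 45.9, 48.3, 59.9 and 63.6 CPM in WT livers, lowest at ZT12 in both (adjusted p 0.0202 and 0.0263). Psma1 had amplitudes of 0.10 in KO and 0.21 in WT livers (adjusted p 0.751 and 0.0677). Psmd7 had 0.10 in KO and 0.21 in WT livers (adjusted p 0.755 and 0.0971), and Psma4 0.12 and 0.14 (adjusted p 0.391 and 0.205).

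The immunoproteasome genes had fitted peaks between ZT 6.46 and ZT 11.3, and edgeR without the offset called none of their rhythms over all libraries. DESeq2 called that of Psmb10 in WT livers, and edgeR with the length and GC offset called all 3 in WT livers and Psmb10 in KO livers. Psmb8 had amplitudes of 0.38 in KO and 0.34 in WT livers (adjusted p 0.167 and 0.141), peaking at ZT 9.03 and ZT 9.69. Psmb10 had 0.39 and 0.38 (adjusted p 0.136 and 0.0904), peaking at ZT 11.3 and ZT 10.9, and Psmb9 had 0.34 and 0.50 (adjusted p 0.548 and 0.102), peaking at ZT 6.46 and ZT 7.03. In set P Psmb8 had 20.8, 33.9, 27.5, 24.4, 12.8 and 17.8 CPM from ZT04 to ZT24 in KO livers (adjusted p 0.0323), against 17.1, 25.1, 20.9, 13.7, 16.5 and 17.05 CPM in WT livers (adjusted p 0.274), highest at ZT08 in both. The smallest p for a difference in rhythm was that of the chaperone Psmg2 (0.0450, adjusted p 0.932), with amplitudes of 0.26 in KO and 0.09 in WT livers. Psmb5, Psme3, Psmc4, Psmd3 and Psmb4 came next in that order, none with an unadjusted p under 0.05.

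**Figure D4:**
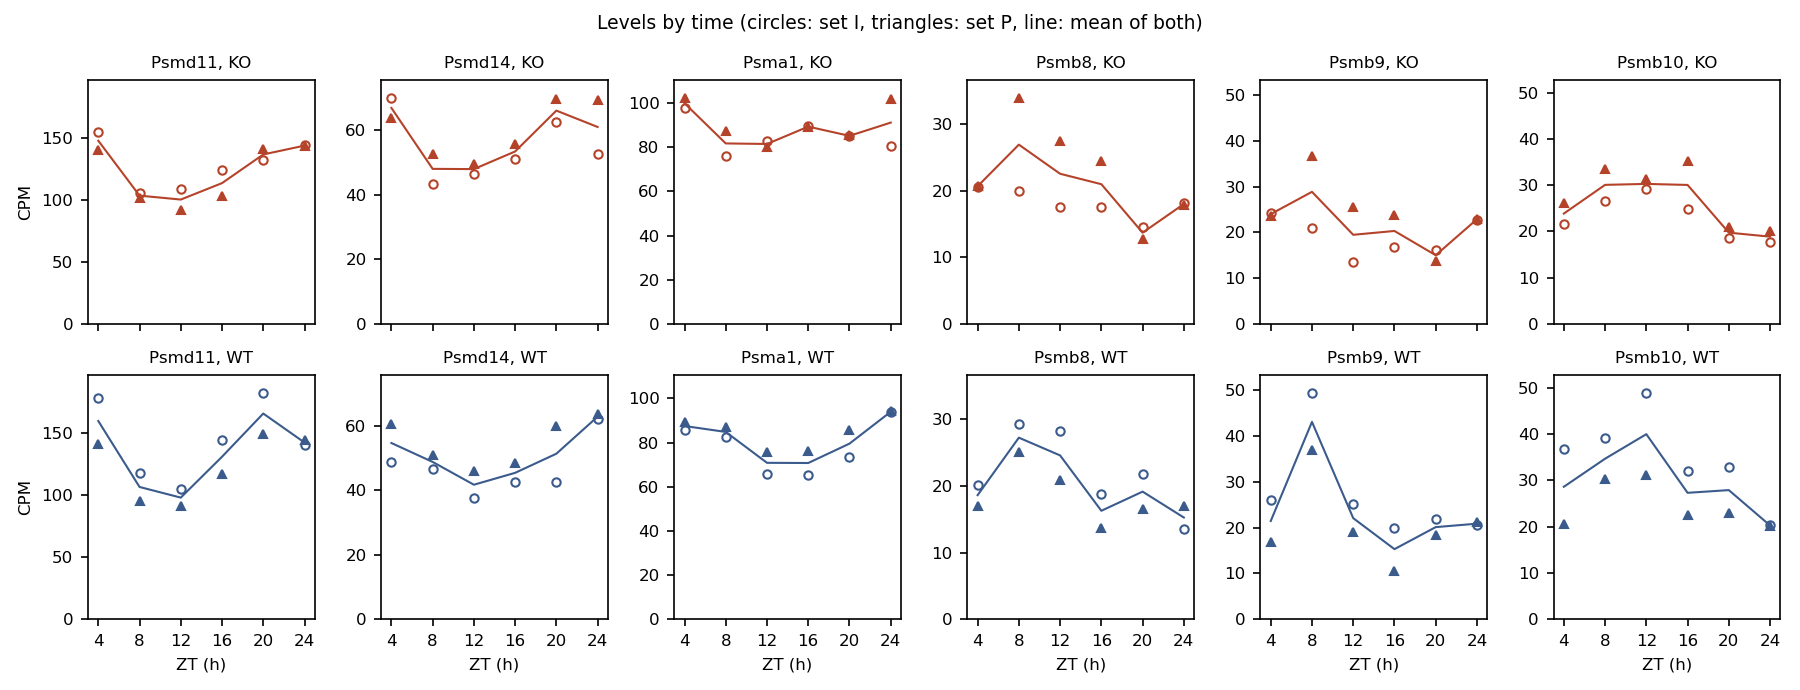
CPM of Psmd11, Psmd14, Psma1, Psmb8, Psmb9 and Psmb10 against ZT in hours, KO (red) above WT (blue) on a shared scale per gene, circles for set I, triangles for set P, and a line through the mean of both. Psmd11 is lowest at ZT08 and ZT12 in both genotypes (91.3 to 118 CPM), while the lines of the immunoproteasome genes are highest at ZT08 or ZT12.

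Of 11 proteins that bind, assemble or edit the proteasome, 1 was higher and 2 were lower over all libraries (12.1% and 21.1% of all genes), with a median log2 change of 0.11. In set P 1 was higher and 1 lower (6.71% and 6.33% of all genes). Zfand5, an activator of the proteasome, was higher (0.39, adjusted p 0.0389) and stood at 0.12 in set P. Ecpas, a scaffold that binds proteasomes, was higher in set P (0.19, adjusted p 0.0489) and stood at 0.64 over all libraries (adjusted p 0.110). The lid subunit Sem1 had 40.1 ± 2.18 CPM in KO and 49.6 ± 5.80 CPM in WT livers (SD, n = 12 each), lower over all libraries (−0.30, adjusted p 0.00401) and in set P (−0.21, adjusted p 0.0300). The ubiquitin receptor Adrm1 was lower over all libraries (−0.32, adjusted p 0.0264) and stood at −0.17 in set P. With the replicate block 4 were higher and 2 lower (25.1% and 27.2% of all genes).

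Of 7 regulators 1 was higher and 1 lower over all libraries, where 12.1% of all genes were higher and 21.1% lower. Nfe2l1, the activator named above, had 161 ± 10.6 CPM in KO and 186 ± 39.9 CPM in WT livers (SD, n = 12 each; −0.20, adjusted p 0.0752, and 0.0285 with the replicate block), and stood at −0.06 in set P. Vcp, the segregase that delivers substrates, was higher (0.18, adjusted p 0.0221) and stood at 0.15 in set P (adjusted p 0.0719). Foxo4, a factor known to raise the lid subunit Psmd11 in human stem cells, was lower over all libraries (−0.36, adjusted p 0.00727) and in set P (−0.30, adjusted p 0.0214), while Psmd11 was called in neither. Of 4 ubiquitin genes Ubb was lower (−0.31, adjusted p 0.0426) and stood at −0.02 in set P.

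Over all libraries 12.1% of all genes were higher and 21.1% lower, and in set P 6.71% and 6.33%. These shares stand beside each count of this paragraph. Of 10 antigen presentation partners of the immunoproteasome 0 were higher and 1 lower over all libraries. The MHC class I gene H2-K1 was lower over all libraries (−0.36, adjusted p 0.0169) and stood at −0.07 in set P, and the peptide trimmer Erap1 was higher in set P (0.32, adjusted p 0.0148). Of the marker lists, 3 of 5 hepatocyte genes were lower, 3 of 6 Kupffer cell genes higher, 1 of 4 leukocyte genes higher, 3 of 4 B cell genes lower (sums 0.616 to 5.60 CPM in KO and 1.33 to 8.42 CPM in WT livers), 1 of 6 T and NK cell genes higher and 1 lower, and 1 of 4 endothelial genes higher. In set P 2 hepatocyte genes were lower, 2 Kupffer cell genes higher, 0 leukocyte genes higher, 0 B cell genes lower, 0 T and NK cell genes higher and 1 lower, and 1 endothelial gene higher. Of 6 interferon response genes only Rsad2 was called, higher over all libraries (0.50, adjusted p 0.0444) and in set P (0.66, adjusted p 0.0373). Over all libraries Isg15, Ifit3, Irf7 and Oasl2 stood at −0.32, −0.12, −0.10 and −0.05, and Ifit1 at 0.40. The median log2 change of the list was −0.07 over all libraries and 0.32 in set P. Its sum was 56.2 to 154 CPM in KO and 38.0 to 525 CPM in WT livers. No listed gene was at 0 in all libraries.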

How the data were processed

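Liver libraries, made with the TruSeq Stranded mRNA kit according to the labels' protocols, were aligned to mm10 with STAR 2.4.0i, per the submitters' processing notes. The deposited values are raw gene counts; how they were counted (tool, annotation, strand) is not given in the sources used here. Gene models were those of GENCODE M21. Counts were tested in R 4.3.3 with edgeR 4.0.16 (TMM, filterByExpr with a minimum count of 10, quasi-likelihood F-test on 12 group means, Benjamini-Hochberg over all genes tested); set P and set I were fitted with ZT as a factor, and rhythms with a 24 h cosine and sine per genotype. DESeq2 1.42.0 and the other alternatives are given below. The steps were also run on simulated counts that held no difference between the sets and no trend with GC content or length. That run therefore cannot show how the steps behave under those features of the data. Copies were sought with blastn 2.17.0+ (at least 95% identity over 200 bases), and figures drawn with Python 3.11.15 and matplotlib 3.10.9.

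The members and lists were chosen with earlier results of these data known. Every gene named is a member or on a fixed list, apart from sequence copies and overlapping genes. Genes were picked for description by a rule. It took the 3 members with the smallest p in each group, the cutting subunits, members called in both fits or called higher, and the 6 smallest p for each rhythm test. Their levels are printed as lowest, median and highest or by time, and for some only the log2 change, the amplitude or the name is printed. Same-lettered KO and WT libraries deviated together at every time (r of 0.12 to 0.32 over 11333 genes whose mean log2 CPM reached 1; 0.05 to 0.23 over all genes tested), and the replicate letter was used as a block in an alternative only; the values reported come from the fit without it unless the block is named. No 2 libraries of a group agreed within sampling noise (chi-square per degree of freedom 13.5 to 179). The partner gene Paaf1 was not analysed here.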

Additional observations from a re-analysis of the deposited data

Results flagged for a closer look

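The genotype effect differed between the sets, in a direct edgeR test of genotype by set, for 25 of the 48 genes. As log2 change in set P minus that in set I, the alpha ring gave 0.35 for Psma5 and 0.43 for Psma7. The beta ring gave 0.48 for Psmb2, 0.54 for Psmb3, 0.39 for Psmb4, 0.56 for Psmb5, 0.41 for Psmb6 and 0.45 for Psmb7, and the immunoproteasome 0.75 for Psmb9 and 0.75 for Psmb10. The base gave 0.44 for Psmc3, 0.45 for Psmc4, 0.38 for Psmc5, 0.38 for Psmd2, 0.39 for Psmd4 and −1.15 for Psmc6. The lid gave 0.39 for Psmd3, 0.52 for Psmd8 and 0.46 for Psmd13. Psmg1 gave 0.53, and the other caps and PI31 gave 0.40 for Psme1, 0.54 for Psme2, 0.33 for Psme3, −1.55 for Psme4 and 0.60 for Psmf1. Of all genes tested 29% differed between the sets.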

How the results depend on the processing

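The count of 25 lower genes was 16 with no filter on low counts, 3 in set P, 3 in set P with the length and GC offset (chosen after seeing the data) and 5 without the 6 WT set I libraries, and 13 to 29 with a library left out. The count of 1 higher gene was 2 with RLE size factors, 3 with no filter, 3 by DESeq2, 8 with the replicate block, 2 with the length and GC offset, 6 with the replicate block and offset, 3 in set P, 3 in set I and 0 without the WT set I libraries, and 0 to 9 with a library left out. At single times, where 0 were called, the offset gave 1 at ZT04, 1 at ZT08 and 1 at ZT16 (2.16%, 1.58% and 3.25% of all genes), and the replicate block with offset 1, 1, 2 and 8 at ZT04, ZT08, ZT16 and ZT20 (3.19%, 1.89%, 5.07% and 12.4%). No filter gave 1 at ZT08, 1 at ZT16 and 7 at ZT20, DESeq2 1 at ZT08 and 2 at ZT20, and the replicate block 14 at ZT20. With a library left out the range was 0 to 1 at ZT04 and at ZT08 and 0 to 33 at ZT20. Rhythms in KO livers, 0 in the fit reported, were 1 with RLE, 2 by DESeq2, 1 with the replicate block, 1 with the offset, 1 with both and 3 in set P (3.8%, 6.59%, 4.65%, 7.06%, 8.1% and 5.24% of all genes), and 0 to 3 with a library left out. Rhythms in WT livers, 1 in the fit reported, were 5 by DESeq2, 4 with the replicate block, 10 with the offset, 10 with both, 2 in set P and 0 in set I (12.7%, 10.9%, 13%, 14.2%, 5.55% and 0%), and 1 to 5 with a library left out. The change of Psma3 turned to −0.27 with the offset and −0.24 with the replicate block and offset. The cause was not tested. Over all alternatives, of 1632 log2 changes of single genes 1241 kept direction and side of the threshold, 241 lost and 73 gained a call, and 77 changed sign. Of those 77, 75 were called in neither fit and the other 2 are the values of Psma3 above. Of the 1632 values, 1152 came from fits that left out 1 library. Those fits share all other libraries with the fit reported and are not independent of it. Signs turned for 8 genes with the offset (Psma1, Psma3, Psma4, Psmb9, Psmb10, Psmc1, Psmd14 and Psme2b) and for 8 in set P (Psma2, Psmb5, Psmb9, Psmb10, Psmc1, Psmd5, Psme2 and Psme2b). Counting depth limits Psma8, Psme2b, Psmg3 and Psmg4 most.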
